A study of Mus musculus with 8 samples.

Results

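Cytochrome b5 reductase and cytochrome b5 genes were followed in the hippocampus of Wfs1-deficient mice. The genes were chosen by symbol, as Cyb5r1, Cyb5r2, Cyb5r3, Cyb5r4, Cyb5a and Cyb5b, and an exact match found 5 of these 6 among 24078 entries of the count table. The sixth, Cyb5a, was taken from the entry Cyb5, an older symbol that the RefSeq gene table pairs with Cyb5a, and it is called Cyb5a here. All 6 passed the filter on low counts, which left 20478 entries for testing. The set was built around Cyb5r2 because its count is far lower in the mutant libraries, so the difference in Cyb5r2 is given as a description with no test.

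The homozygous group held 4 mice with both copies of Wfs1 carrying the targeted allele Wfs1tm1Koks, and the wild-type group held 4 mice of the same line. Wfs1 encodes wolframin, a membrane protein of the endoplasmic reticulum (ER). Whole hippocampus was dissected from each animal, and RNA was depleted of ribosomal RNA and sequenced on the SOLiD 4 platform. Neither age, sex, litter nor batch is given in the labels, so a batch that followed genotype could not be told apart from it. Libraries held 3250949 to 5077114 counts in homozygous mice and 3296309 to 6747411 in wild-type mice. Wfs1 had 16.3, 17.7, 13.3 and 12.03 CPM (counts scaled to library size after TMM correction for composition) in homozygous replicates 15 to 18, and 54.6, 47.5, 61.3 and 44.6 CPM in wild-type replicates 7 to 10. Every homozygous value lay below every wild-type value (log2 fold change -1.81, SE 0.16, adjusted p 2.62e-05 in edgeR's quasi-likelihood fit, Benjamini-Hochberg).

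Cytochrome b5 reductases are flavoproteins that take electrons from NADH and pass them to cytochrome b5, a small haem protein anchored in membranes. Cytochrome b5 in turn feeds enzymes that desaturate fatty acids and sphingolipids, build sterols or support cytochrome P450. Cyb5r3 is the main reductase of the ER and the outer mitochondrial membrane, and a soluble form in red blood cells keeps haemoglobin reduced. Cyb5r4 joins a cytochrome b5-like domain and a reductase domain in 1 protein, while Cyb5a is the cytochrome b5 of the ER and Cyb5b that of the outer mitochondrial membrane. Cyb5r1 and Cyb5r2 are less studied relatives of Cyb5r3.

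The 300 bases around the start sites of Cyb5r2 and Cyb5b are shown because these genes had the highest levels per length among the 6 in wild-type mice, with log2 fold changes of -6.20 for Cyb5r2 and -0.41 for Cyb5b. Each runs 5′ to 3′ on the gene's strand from 250 bases before the start to 50 after it (RefSeq, GRCm38.p6), at chr7:107757983-107758282 on the minus strand for Cyb5r2 and chr8:107150411-107150710 on the plus strand for Cyb5b. Capitals mark CG pairs.
Cyb5r2: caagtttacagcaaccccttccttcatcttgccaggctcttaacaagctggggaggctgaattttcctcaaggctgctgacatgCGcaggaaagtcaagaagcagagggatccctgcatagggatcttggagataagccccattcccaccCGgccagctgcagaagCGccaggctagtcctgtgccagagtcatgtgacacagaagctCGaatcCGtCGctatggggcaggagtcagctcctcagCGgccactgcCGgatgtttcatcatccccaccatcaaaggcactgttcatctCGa
Cyb5b: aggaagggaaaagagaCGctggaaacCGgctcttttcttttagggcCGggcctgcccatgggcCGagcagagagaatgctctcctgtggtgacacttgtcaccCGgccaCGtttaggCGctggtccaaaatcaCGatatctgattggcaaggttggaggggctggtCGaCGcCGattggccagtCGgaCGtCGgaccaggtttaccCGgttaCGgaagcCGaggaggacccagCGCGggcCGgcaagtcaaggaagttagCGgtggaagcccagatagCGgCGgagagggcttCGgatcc

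The Cyb5r2 window held 9 CG pairs and 55.3% G or C, against medians of 7 pairs and 52.7% over 32851 mouse promoters of the same length, and 54.2% of those promoters had fewer pairs. The Cyb5b window held 24 pairs and 60.7% G or C, more pairs than 80.0% of promoters. The windows of Cyb5r4 and Cyb5r1 held 19 and 5 pairs. Searched on both strands, the Cyb5b window held 2 matches to the letters CCAAT, which stand in 37.4% of all promoters. The Cyb5r2 window held no match to CCAAT, to the E-box letters CACGTG (7.15% of promoters), to GGGCGG (35.7%) or to TATAAA (13.6%). In these 2 windows only CCAAT was found, so no matches of different motifs overlap.

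Cyb5r2 was an abundant transcript in wild-type hippocampus and a far less abundant one in homozygous hippocampus. It had 12.01, 17.7, 14.2 and 14.7 CPM in homozygous replicates 15 to 18, and 1485, 1181, 778 and 856 CPM in wild-type replicates 7 to 10. The lowest wild-type library stood far above the highest homozygous one. The raw counts behind these values were 68, 61, 49 and 50 in homozygous mice and 6929, 3484, 4847 and 4068 in wild-type mice. Counting error is therefore small beside the difference between groups, though larger in proportion on the homozygous side. The mean was 14.6 ± 2.35 CPM in homozygous mice and 1075 ± 324 CPM in wild-type mice (SD, n = 4 each), which is a log2 fold change of -6.20 (SE 0.27), or 73.6-fold lower. With a trend of fold change on read density (counts per kb of exon) taken out, the log2 fold change was -5.57.

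By mean CPM, Cyb5r2 ranked 13001 of 20478 genes in homozygous mice and 36 in wild-type mice. Single libraries placed it between ranks 11646 and 14096 in homozygous mice and between 18 and 68 in wild-type mice. Its coefficient of variation was 16.1% over homozygous libraries and 30.2% over wild-type libraries, with the highest wild-type value 1.91 times the lowest. Within a factor of 2 of its wild-type mean lay 111 genes, Cyb5r2 included, with a median wild-type coefficient of variation of 16.2%, and 19 of them varied at least as much. Their median log2 fold change was -0.77. Of the 111, 14 had a log2 fold change of -3 or below, Cyb5r2 among them.

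**Figure D1:**
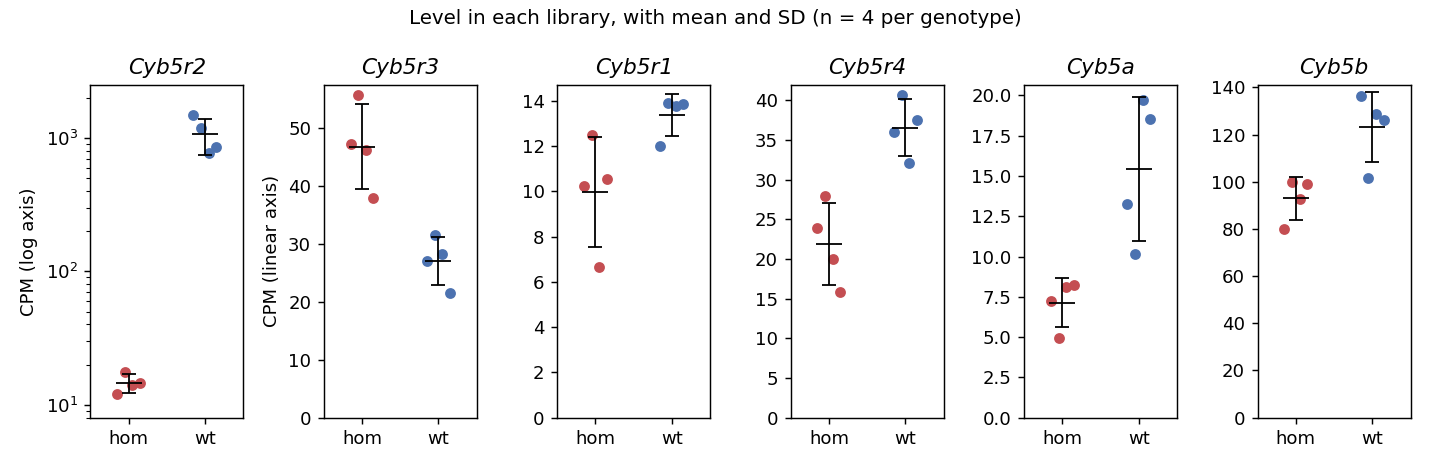
CPM of the 6 genes in each library, homozygous (hom, red) left of wild-type (wt, blue), with mean and SD over 4 libraries; the Cyb5r2 axis is logarithmic and the others are linear from 0. Cyb5r2 lies between 12.01 and 17.7 CPM in homozygous and between 778 and 1485 CPM in wild-type libraries, Cyb5r3 is the gene whose homozygous values all lie above wild-type, and Cyb5r1 is the gene whose groups overlap.

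The reductase Cyb5r3 went the other way from Cyb5r2. Cyb5r3 had 47.3, 55.8, 46.3 and 37.9 CPM in homozygous replicates 15 to 18, and 27.0, 31.5, 28.2 and 21.5 CPM in wild-type replicates 7 to 10. The groups did not overlap, and the lowest homozygous library stood above the highest wild-type one. Cyb5r3 rose 1.74-fold (log2 fold change 0.80, SE 0.15, adjusted p 0.00241, edgeR, Benjamini-Hochberg over all genes tested), with means of 46.8 ± 7.32 CPM in homozygous and 27.1 ± 4.19 CPM in wild-type mice (SD, n = 4 each).

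Because Cyb5r3 serves red blood cells, markers of these cells are given beside it. Of 4 markers described, Slc4a1 and Alas2 rose (log2 fold changes 1.22, SE 0.20, and 0.91, SE 0.25). The beta-globin entries Hbb-b1 and Hbb-b2, which have identical counts in all libraries, fell (log2 fold change -1.95, SE 0.40). The summed level of the 4 entries was 72.6 to 95.5 CPM in homozygous and 42.4 to 77.2 CPM in wild-type libraries. This sum holds the same beta-globin counts more than once. Because the markers moved in opposite directions, it does not gauge the content of red blood cells. The part of such cells in the Cyb5r3 difference was not tested.

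Cyb5r4 fell. It had 23.8, 27.9, 19.95 and 15.9 CPM in homozygous replicates 15 to 18, and 36.0, 40.7, 32.1 and 37.4 CPM in wild-type replicates 7 to 10. All homozygous values lay below all wild-type values, with a log2 fold change of -0.73 (SE 0.17, adjusted p 0.00602, edgeR). Reads of Cyb5r4 are less certain than those of its relatives: of 6764 windows of 35 bases in its annotated transcripts, 1451 (21.5%) also occur in transcripts of other genes, on either strand.

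Cyb5r1 did not pass the threshold. It had 10.2, 12.5, 6.65 and 10.6 CPM in homozygous replicates 15 to 18, and 11.999, 13.9, 13.8 and 13.9 CPM in wild-type replicates 7 to 10. The groups overlapped, since homozygous replicate 16 lay above wild-type replicate 7. Its log2 fold change was -0.42 (SE 0.19, adjusted p 0.0974, edgeR). It passed with the trend of fold change on abundance removed (-0.58, adjusted p 0.0344, edgeR) or without homozygous replicate 16 (-0.54, adjusted p 0.0463, edgeR), and its adjusted p is under a threshold of 0.1.

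Both cytochrome b5 genes were lower in homozygous mice. Cyb5a had 7.24, 4.94, 8.10 and 8.22 CPM in homozygous replicates 15 to 18, and 13.3, 10.2, 19.7 and 18.5 CPM in wild-type replicates 7 to 10. The groups did not overlap, and the log2 fold change was -1.14 (SE 0.24, adjusted p 0.00397, edgeR). Behind it stood 114 counts summed over homozygous and 303 over wild-type libraries.

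Cyb5b, the most abundant of the 5 genes other than Cyb5r2, had 80.2, 99.9, 92.8 and 99.2 CPM in homozygous replicates 15 to 18, and 136, 102, 129 and 126 CPM in wild-type replicates 7 to 10. The groups came close, with homozygous replicate 16 just under wild-type replicate 8. Its log2 fold change was -0.41 (SE 0.13, adjusted p 0.0286, edgeR). This call depends on how the libraries are scaled: it ended with library totals alone (-0.21, adjusted p 0.216) and after the abundance trend was taken out (-0.11, adjusted p 0.501), and with the read-density trend taken out the value was 0.06 (adjusted p 0.724, edgeR in each). Leaving out wild-type replicate 7, 9 or 10 or homozygous replicate 15 also ended it, with log2 fold changes of -0.36, -0.39, -0.41 and -0.34 and an adjusted p of 0.0625 to 0.0871 in edgeR.

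Of the 5 genes other than Cyb5r2, 1 rose, 3 fell and 1 did not pass. Among all genes tested 41.1% passed, 20.7% as higher and 20.4% as lower, so 4 calls among 5 genes is read against a background in which calls are common. Groups did not overlap for 4 of these 5 genes, against 37.6% of all genes. In whole tissue, fewer cells of a type and less RNA per cell cannot be told apart. The median log2 fold change over all genes was 0.05.

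Levels between genes were compared per kilobase of annotated exon (GENCODE M21). This length joins all annotated exons of a gene and can exceed that of any single transcript. The 6 genes have from 2 to 10 annotated transcripts, so the order of genes and the shares below are approximate. In homozygous mice the order from high to low was Cyb5b, Cyb5r3, Cyb5r2, Cyb5r4, Cyb5a and Cyb5r1, with mean levels of 21.3, 10.9, 5.28, 3.25, 2.29 and 2.25 CPM per kb. In wild-type mice it was Cyb5r2, Cyb5b, Cyb5r3, Cyb5r4, Cyb5a and Cyb5r1, with mean levels of 388, 28.2, 6.30, 5.43, 4.97 and 3.02 CPM per kb. The order of the other 5 genes was the same in both genotypes, and Cyb5r2 was the gene that changed place. In homozygous mice the library values of Cyb5r4 and Cyb5a overlapped, as did those of Cyb5a and Cyb5r1. In wild-type mice those of Cyb5r3 and Cyb5r4 overlapped, as did those of Cyb5r4 and Cyb5a.

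Levels were set beside those of 138 genes of the Krt (keratin), Tas1r and Tas2r (taste receptor), Cyp2 and Mrgpr families. These gauge genes have little known role in hippocampus and were picked with results of these data known. Their mean levels ran, from the 10th to the 90th percentile, from 2.198 to 7.98 CPM per kb in homozygous and from 1.70 to 7.33 CPM per kb in wild-type libraries. The median level over all genes also lay inside this range in both genotypes. A place inside the range therefore does not separate a low level from a typical one. Cyb5r2 lay inside this range in every homozygous library, at 4.33 to 6.39 CPM per kb, and far above it in every wild-type library, at 281 to 536 CPM per kb. Cyb5r3 lay above it in every homozygous library, at 8.81 to 12.97 CPM per kb, while its mean of 6.30 in wild-type mice was inside. Cyb5b was above the range in all libraries. The means of Cyb5r1, Cyb5r4 and Cyb5a were inside it in both genotypes.

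**Figure D2:**
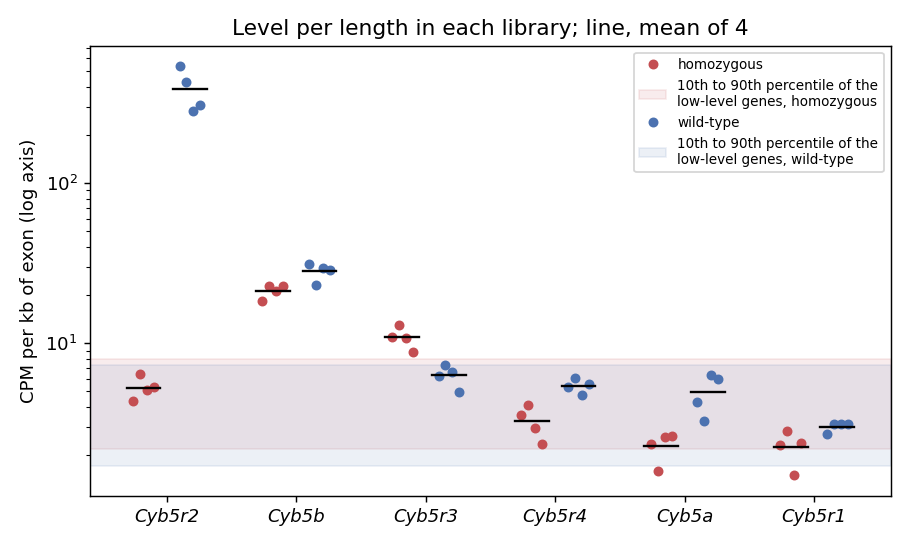
CPM per kilobase of exon on a log axis, with 1 point per library and a line at the mean, homozygous (red) left of wild-type (blue); shaded bands give the 10th to 90th percentile of the 138 gauge genes in each genotype. Cyb5r2 is inside the band in homozygous libraries and the highest of the 6 in wild-type libraries, and Cyb5b is above the band in both.

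The make-up of the reductase pool differed accordingly. Summed over the 4 reductases, levels per length were 21.7 ± 3.25 CPM per kb in homozygous and 403 ± 117 CPM per kb in wild-type mice (SD, n = 4 each). Cyb5r2 made up 20.4% to 28.1% of that sum in homozygous libraries and 95.1% to 97.4% in wild-type libraries. Without Cyb5r2 the sum was 16.4 ± 2.72 CPM per kb in homozygous and 14.7 ± 1.23 CPM per kb in wild-type mice, with overlapping values. Within this remainder Cyb5r3 took 65.0% to 70.7% in homozygous and 36.5% to 45.5% in wild-type libraries, and Cyb5r4 took 17.4% to 20.99% in homozygous and 33.0% to 40.6% in wild-type libraries. The 2 cytochromes summed to 23.6 ± 2.03 CPM per kb in homozygous and 33.1 ± 4.42 CPM per kb in wild-type mice. Cyb5b made up 88.7% to 93.5% of the sum in homozygous and 82.2% to 87.9% in wild-type libraries. The difference in this sum therefore rests mostly on Cyb5b, whose fall depended on how the libraries were scaled, as given above.

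Ratios of counts within a library do not depend on the scale factor of that library. They are not free of trends on abundance or read density, whose removal shifts genes by different amounts. With the read-density trend taken out, Cyb5a went from -1.14 to -1.32 and Cyb5b from -0.41 to 0.06 in log2 fold change. The 10 pairs among the 5 genes other than Cyb5r2 were compared between genotypes with an exact two-sided permutation test over libraries, in which the smallest possible p is 0.0286. Groups did not overlap in 5 pairs, all at that smallest p, and with adjustment over the 10 pairs they had an adjusted p of 0.0571, so no pair passed 0.05. The log2 ratio of Cyb5r3 to Cyb5r4 was 1.11 ± 0.14 in homozygous and -0.44 ± 0.26 in wild-type mice (SD, n = 4 each), so on average Cyb5r3 had more counts than Cyb5r4 in homozygous mice and fewer in wild-type mice. The log2 ratio of Cyb5r3 to Cyb5b was -0.997 ± 0.28 in homozygous and -2.19 ± 0.37 in wild-type mice, and that of Cyb5r3 to Cyb5a was 2.71 ± 0.54 in homozygous and 0.84 ± 0.61 in wild-type mice. The other pairs without overlap were Cyb5r1 to Cyb5r3, with a homozygous minus wild-type difference of -1.24, and Cyb5a to Cyb5b, with -0.68. The log2 ratio of Cyb5r2 to Cyb5r3, given with no test, was -1.67 ± 0.25 in homozygous and 5.27 ± 0.41 in wild-type mice.

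The annotated neighbour that overlaps Cyb5r2 changed in the opposite direction. Cyb5r2 lies on the minus strand of chromosome 7, from 107748455 to 107758032 of mm10, and Ppfibp2, which encodes the scaffold protein liprin beta 2, lies on the plus strand from 107595207 to 107748583. The genes meet at their 3′ ends and share 129 bases on opposite strands. Ppfibp2 had 239, 178, 329 and 71.6 CPM in homozygous replicates 15 to 18, and 35.1, 30.5, 30.5 and 36.2 CPM in wild-type replicates 7 to 10. The groups did not overlap, although homozygous libraries varied widely, with replicate 18 the lowest. Ppfibp2 rose with a log2 fold change of 2.63 (SE 0.36, adjusted p 0.000375, edgeR), and without single libraries in turn the log2 fold change ranged from 2.29 to 2.90.

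Reads from the shared stretch cannot be assigned if counting ignored strand, and no source used here states the strand setting. Of 2769 windows of 35 bases in Cyb5r2 transcripts, 95 (3.43%) also occur elsewhere in the annotated transcripts, all on the opposite strand of Ppfibp2. No window of 35 or 50 bases, the lengths of the reads, was shared between any of the 6 genes. The figures for the others were 14 of 4661 windows of 35 bases in Cyb5r1, 226 of 4263 in Cyb5r3, and 0 in Cyb5a and Cyb5b.

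Farther from Cyb5r2 the differences were smaller. On the far side of its start, Ovch2 rose from a low level, with 12.7 ± 5.20 CPM in homozygous and 7.34 ± 1.44 CPM in wild-type mice (SD, n = 4 each; log2 fold change 0.76, SE 0.27, adjusted p 0.0410, edgeR). This call ended in 8 of the alternative fits, among them the one without homozygous replicate 16 (0.45). The olfactory receptor gene Olfr467 fell (log2 fold change -1.14, SE 0.22, adjusted p 0.00253, edgeR), at 3.80 ± 0.56 CPM in homozygous and 8.70 ± 1.98 CPM in wild-type mice. Olfr472 (-0.24), the synaptotagmin gene Syt9 (-0.27) and Olfml1 (0.18) did not pass.

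**Figure D3:**
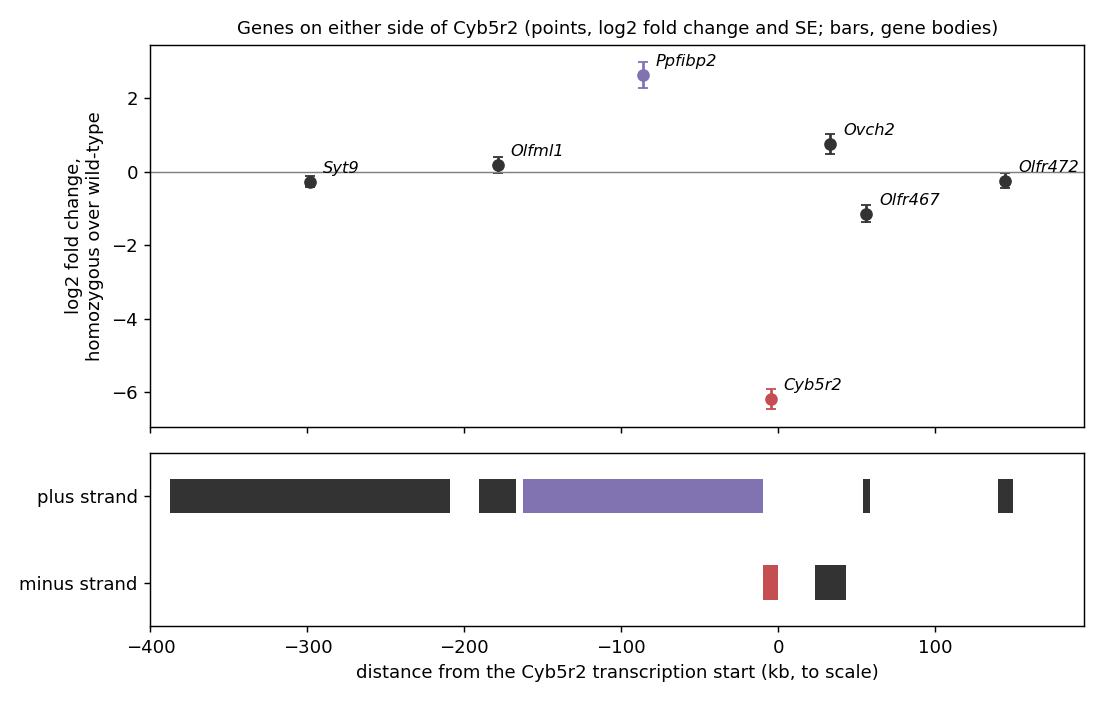
Log2 fold change of Cyb5r2 and of the nearest 3 tested genes on each side (points with SE, homozygous over wild-type), placed at the middle of each gene, above a to-scale map of gene bodies by strand with distance in kb from the Cyb5r2 start. Cyb5r2 stands at -6.20 and the adjoining Ppfibp2 at 2.63, and the other 5 genes lie between -1.14 and 0.76.

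The 5 genes of at least 1 CPM whose profile over the 8 libraries was most like that of Cyb5r2 were Gm9159, Obox2, Zfyve27, Gm1993 and Rec8. Likeness was the root mean square difference of log2 CPM after each gene's own mean was taken off, and it was 0.46, 0.47, 0.50, 0.72 and 0.82 in that order. It follows the genotype difference that singled out Cyb5r2, so it is a description with no test. Zfyve27, the gene of protrudin, which shapes the ER, had 99.8 to 118 CPM in its lowest and highest homozygous libraries and 8082 to 15928 CPM in wild-type libraries. Gm9159, a processed pseudogene, had 11.3 to 15.9 CPM in homozygous and 558 to 924 CPM in wild-type libraries. Rec8, a meiotic cohesin gene, had 12.5 to 18.5 CPM in homozygous and 327 to 692 CPM in wild-type libraries. Obox2 and Gm1993 were under 1 CPM in every homozygous library.

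Enzymes listed as electron acceptors of cytochrome b5 fell more often than they rose. Whether each of them draws on Cyb5a or Cyb5b was not tested. Of 18 listed and tested, 8 fell, 1 rose and 9 did not pass, against 20.4% lower and 20.7% higher among all genes, with a median log2 fold change of -0.44 beside 0.05 for all genes. With the abundance trend taken out 6 of 18 fell, and with the read-density trend taken out 5 of the 16 that had an exon length. In each of these fits 1 rose. Among all genes, 3390 of 20478 and 3101 of 20094 were lower in the same fits, and 3644 and 3370 were higher, in that order. Fads1, the delta-5 fatty acid desaturase, had 110 ± 27.1 CPM in homozygous and 310 ± 89.7 CPM in wild-type mice (SD, n = 4 each; log2 fold change -1.49, SE 0.24, adjusted p 0.000775, edgeR). Degs1, the desaturase that makes ceramide, fell as well, with 28.1 ± 0.88 CPM in homozygous and 51.3 ± 7.75 CPM in wild-type mice (-0.86, SE 0.13), as did the delta-6 desaturase Fads2 (-0.84, SE 0.15).

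The stearoyl-CoA desaturase genes, which make monounsaturated fatty acids, did not move as 1 group. Scd1 fell (log2 fold change -0.65, SE 0.13, adjusted p 0.00293, edgeR), and Scd4 did not pass (0.12, SE 0.41). Scd2, the main brain form, had 310 ± 27.8 CPM in homozygous and 553 ± 61.7 CPM in wild-type mice (log2 fold change -0.83, SE 0.14, adjusted p 0.00121, edgeR), and it no longer passed with the abundance trend (-0.19) or the read-density trend (-0.06) taken out. Scd3 was the member that rose, with 35.4 ± 6.36 CPM in homozygous and 24.5 ± 2.74 CPM in wild-type mice (0.53, SE 0.15, adjusted p 0.0168, edgeR), and this call ended without wild-type replicate 7 (0.46). Cmah, which hydroxylates a sialic acid, stood at -0.01 and did not pass. The mitochondrial amidoxime reductase genes Marc1 and Marc2, which work with Cyb5b, stood at 0.38 and -0.48 and did not pass either.

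Of 10 other genes with a cytochrome b5 or reductase domain, 3 fell, 1 rose and 6 did not pass, with a median log2 fold change of -0.34. The 4 calls among 10 genes are close to the 41.1% called among all genes. Por, the NADPH reductase that serves cytochrome P450, had 26.0 ± 6.85 CPM in homozygous and 45.6 ± 6.32 CPM in wild-type mice (SD, n = 4 each; log2 fold change -0.80, SE 0.19, adjusted p 0.00666, edgeR). Nenf, a secreted haem-binding protein gene, fell (-1.11, SE 0.25), as did the haem-binding membrane protein gene Pgrmc1 (-0.70, SE 0.17), which no longer passed with the abundance trend taken out (-0.34, adjusted p 0.116, edgeR) and stood at 0.06 with the read-density trend taken out. Suox, the sulfite oxidase gene of mitochondria, rose (0.50, SE 0.14, adjusted p 0.0152, edgeR). The further reductase relative Cyb5rl did not pass (0.37, SE 0.20, adjusted p 0.151, edgeR), with 7.26 to 9.39 CPM in homozygous and 5.09 to 8.14 CPM in wild-type libraries.

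**Figure D4:**
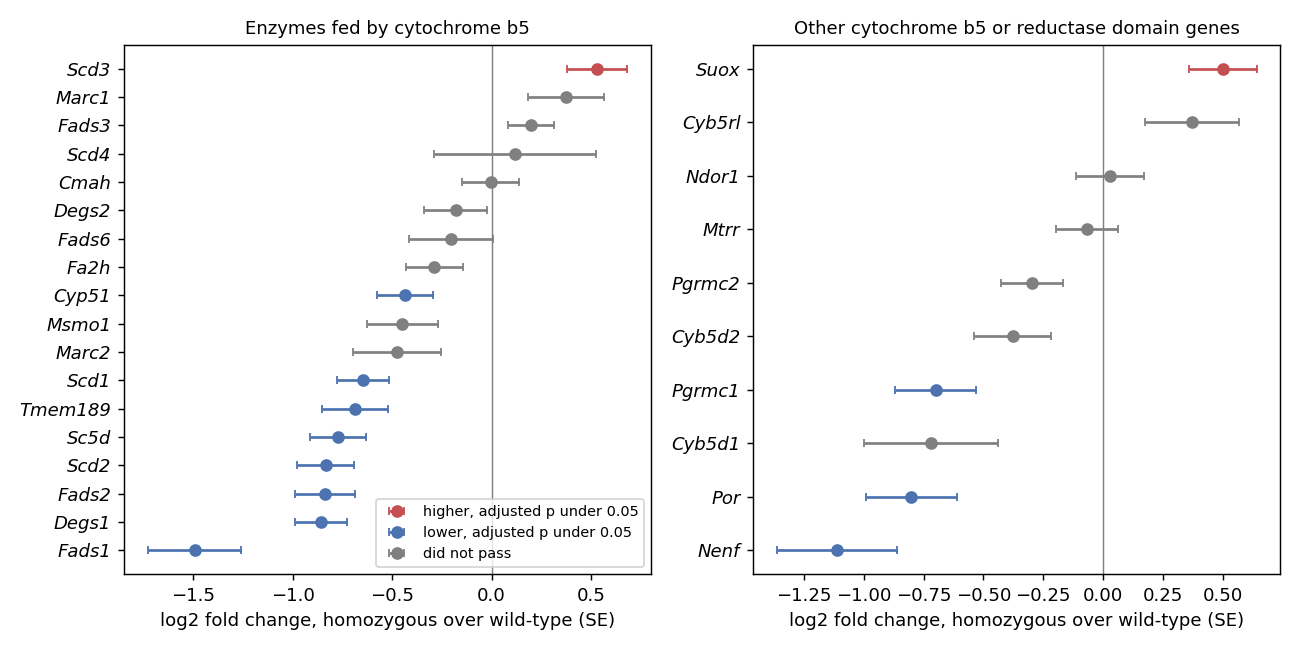
Log2 fold change with SE, homozygous over wild-type. Left, 18 enzymes listed as electron acceptors of cytochrome b5. Right, 10 other genes with a cytochrome b5 or reductase domain. Colour gives whether adjusted p was under 0.05 in edgeR. Points to the left of 0 are lower in homozygous mice, from Fads1 at -1.49, and Scd3 and Suox are the genes that rose.

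Markers of several cell types differed between genotypes too, beside 20.4% of all genes lower and 20.7% higher. Of 5 neuron markers 4 fell and 1 rose, with a summed level of 1473 to 1708 CPM in homozygous and 2147 to 3016 CPM in wild-type libraries. All 4 oligodendrocyte markers fell (715 to 835 CPM in homozygous, 1092 to 1762 CPM in wild-type), as did 2 of 4 astrocyte markers (576 to 786 CPM in homozygous, 762 to 983 CPM in wild-type). So did 4 of 5 hippocampal markers, Wfs1 included (253 to 297 CPM in homozygous, 437 to 588 CPM in wild-type). Wfs1 is the targeted gene, so its fall says nothing about hippocampal cells, yet it is in this sum and in these counts. The other hippocampal markers that fell were Fibcd1, Neurod6 and Zbtb20. The marker calls depend on the scaling. With the abundance trend taken out, 0 of 5 neuron, 1 of 4 oligodendrocyte, 0 of 4 astrocyte and 4 of 5 hippocampal markers fell. In that fit 1 neuron marker rose. With the read-density trend taken out 0, 0, 0 and 2 of them fell, while 1 neuron and 1 astrocyte marker rose. Wfs1 was among the hippocampal markers that fell in both fits (log2 fold changes -1.82 and -1.85). Among all genes, 3390 of 20478 and 3101 of 20094 were lower in the same fits, and 3644 and 3370 were higher, in that order. None of 4 microglial, 1 of 4 endothelial and 1 of 5 choroid plexus markers passed, the last summing to 98.6 to 827 CPM in homozygous and 193 to 1194 CPM in wild-type libraries. The part of cell composition in the differences above was not tested.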

How the data were processed

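Raw gene counts were deposited by the authors as 1 table covering the 8 libraries, with mm10 as the build per the submitters' processing notes. No source used here states the aligner, the counter, its strand setting or the annotation. Whole-number values with unequal totals gave the unit, and 0 count columns belonged to no listed sample. Each library is a different animal per the labels.

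Counts were filtered with filterByExpr (3600 entries removed), scaled with TMM and tested with edgeR 4.0.16 in R 4.3.3 (quasi-likelihood, two-sided, no covariate), with Benjamini-Hochberg adjustment over all 20478 genes and a threshold of 0.05. The code was tested on simulated counts with far fewer changed genes than were called here, so that test does not bear on the scaling. Ratios used a pseudocount of 0.5 counts. Positions and exon lengths came from GENCODE M21, which matched 94.1% of entries, and promoters from RefSeq. Named genes were the 6 members, Wfs1, the nearest 3 tested genes on each side of Cyb5r2, the 5 most alike profiles, and up to 4 genes per direction of each list by smallest p; other list genes named were chosen after their values were seen. A listed marker gene is not reported here. Members and lists were chosen with earlier results of these data known. Alternatives were other scalings (DESeq2-type factors, library totals), filters, DESeq2 1.42.0, limma-voom (limma 3.58.1), robust dispersion, removal of Rn45s and Lars2, removal of loess trends (span 0.3), a threshold of 0.1, other pseudocounts and leaving out each library.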

Additional observations from a re-analysis of the deposited data

Results flagged for a closer look

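In a group of 4, a value was picked out when its gap to the nearest other library took more of the group's range than Dixon's critical value for 4 samples, and chance does so in about 1 in 20 groups. Of 54 groups, 2 were picked out. Cyb5r1 had 11.999 CPM in wild-type replicate 7, beside 13.8 to 13.9 CPM in the other wild-type libraries. Obox2 had 0.353 CPM in homozygous replicate 15, beside 0.289 to 0.294 CPM in the other homozygous libraries, levels that rest on 1 or 2 counts per library.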

How the results depend on the processing

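Cyb5r3, Cyb5r4 and Cyb5a kept their direction and their side of the threshold in all alternatives run. Cyb5r2, described with no test, had log2 fold changes between -6.33 and -6.01 without single libraries, -5.87 with the abundance trend removed and -5.57 with the density trend removed. Cyb5r1 (-0.42) passed at a threshold of 0.1 (-0.42), with the abundance trend removed (-0.58) and with the density trend removed (-0.61), and ranged from -0.54 to -0.28 without single libraries. Cyb5b (-0.41) did not pass with library totals only (-0.21) or the abundance trend removed (-0.11), stood at 0.060 with the density trend removed, and ranged from -0.51 to -0.34 without single libraries. Pgrmc1 stood at 0.056 with the density trend removed, and Olfml1 ranged from -0.0037 to 0.38 without single libraries. With library totals only, 6645 genes were higher and 2412 lower, against 4241 and 4168, and the median of all genes was 0.25. The log2 ratio of Cyb5r1 to Cyb5b was 0.0071 with a pseudocount of 5, against -0.05. The causes were not tested. No paired analysis was possible because the genotypes share no replicate number. Levels under about 10 CPM rest on few counts: Cyb5a had 17 to 41 counts in homozygous libraries.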
